A study of Mus musculus with 8 samples.

Results

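Myosin light chains and troponins are small proteins of the muscle filaments, and 6 of their genes (Myl1, Myl4, Mylpf, Tnni1, Tnnt2 and Tnnc2) were taken by name from a deposited table of 5457 mouse genes. All 6 were found there. Their levels were compared between cells that had been sorted from muscle by the history of a marker gene, Twist2 (written Tw2) or Pax7, and then cultured. Pax7 encodes the transcription factor of satellite cells, the resident stem cells of skeletal muscle, and Twist2 also encodes a DNA-binding regulator.

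The 8 RNA-seq libraries fall into 4 groups of 2, named Tw2_48, Pax7_48, Tw2_GM and Pax7_GM. The Tw2 groups came from adult C57BL/6 mice of genotype Tw2-CreERT2/+;R26-tdTO+, and the Pax7 groups from adult C57BL/6 mice of genotype Pax7-CreERT2/+;R26-tdTO+. In both, tamoxifen switches on a Cre recombinase made where Twist2 or Pax7 is expressed, and the recombined cells and their descendants then carry the red protein tdTomato. All groups shared 3 tamoxifen treatments given on alternate days, with 10 days before harvest, digestion of hind limb muscle, sorting of tdTomato-positive cells and plating on Matrigel. GM cultures were in growth medium (Ham's F10 with 20% fetal bovine serum). A differentiation medium with 2% horse serum and bFGF is also described, but the labels do not state which medium the 48 cultures were in, and only the Tw2 titles say that 48 is in hours. The labels do not say that the 2 libraries of a group came from separate mice or cultures, so p-values measure the spread between these libraries, which may be technical.

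The table gives the mean CPM of each group, a gene's reads scaled to library size. Each mean was taken apart into its 2 libraries, called deeper and shallower, which have implied sizes of 5.18 to 13.7 M reads. This gave 1 solution in every group for 5452 genes, 5 of the 6 genes here among them. The exception is Mylpf, which has 2 solutions in Pax7_48 and is given there as the authors' mean. The SD of the log2 ratio between paired libraries was 0.498 in Pax7_GM and 0.169 to 0.196 in the other groups. Every listed gene differs from Tw2_GM by at least 1 on the log2 scale in at least 1 other group, so the genes called are shares of a set that was itself selected on differences. Pax7 mRNA was read after culture, so it does not test the sort, which went by tdTomato. It was at 113 and 109 CPM in the Tw2_GM pair, against 117 and 112 CPM in the Pax7_GM pair in growth medium. The log2 difference was −0.05, with a 95% interval of −0.32 to 0.23, and it lay between −0.91 and 0.60 under the other scalings tried. Twist2 was not analysed here.

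Muscle contracts when myosin heads on the thick filament pull on actin in the thin filament. Each myosin heavy chain carries an essential (alkali) light chain and a regulatory light chain, which stiffen and tune its lever arm. On the thin filament, troponin C binds calcium, troponin I inhibits and troponin T anchors the complex to tropomyosin. Fast, slow, cardiac and embryonic muscle use different genes for these subunits, and young muscle cells of mammals often express cardiac and slow forms that adult fast fibres later replace. Myl1 encodes the fast essential light chain, Myl4 the embryonic and atrial essential light chain, and Mylpf the fast regulatory light chain. Tnnc2 encodes fast troponin C, Tnni1 slow troponin I, and Tnnt2 cardiac troponin T, which embryonic skeletal muscle also makes.

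Because the genes moved together between cultures, the DNA before their starts was searched for the E-box CANNTG, the core recognised by myogenic basic helix-loop-helix factors. The stretches shown are those of 2 fast genes (Mylpf, Tnnc2), a slow gene (Tnni1) and a cardiac gene (Tnnt2). They come from RefSeq (GRCm38.p6), read 5′ to 3′ on the gene's strand, cut to the longest run outside annotated exons within the 250 bases before the first listed start, with E-boxes in capitals. Mylpf lies at chr7:127211358-127211607 on the plus strand, Tnnc2 at chr2:164779742-164779867 on the minus strand, Tnni1 at chr1:135799171-135799401 on the plus strand and Tnnt2 at chr1:135836084-135836333 on the plus strand. The first 3 lie inside the GENCODE span of their gene, in an intron of another transcript, and the Tnnt2 stretch lies before its gene.
Mylpf: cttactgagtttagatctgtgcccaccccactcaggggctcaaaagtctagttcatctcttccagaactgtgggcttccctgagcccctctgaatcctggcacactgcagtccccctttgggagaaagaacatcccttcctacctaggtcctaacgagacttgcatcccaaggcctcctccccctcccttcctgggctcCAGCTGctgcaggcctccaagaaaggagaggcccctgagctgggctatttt
Tnnc2: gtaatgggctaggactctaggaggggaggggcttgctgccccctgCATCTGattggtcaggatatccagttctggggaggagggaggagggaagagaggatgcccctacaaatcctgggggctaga
Tnni1: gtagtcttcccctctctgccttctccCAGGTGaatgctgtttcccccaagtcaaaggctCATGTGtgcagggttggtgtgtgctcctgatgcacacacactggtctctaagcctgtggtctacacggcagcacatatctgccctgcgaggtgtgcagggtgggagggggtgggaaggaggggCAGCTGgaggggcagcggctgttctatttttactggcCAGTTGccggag
Tnnt2: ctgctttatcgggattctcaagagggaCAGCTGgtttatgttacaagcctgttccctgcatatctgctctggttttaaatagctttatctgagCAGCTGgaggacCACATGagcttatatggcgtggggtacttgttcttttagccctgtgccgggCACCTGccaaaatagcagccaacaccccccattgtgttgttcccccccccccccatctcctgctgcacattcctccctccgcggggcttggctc

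In the whole 250 bases before the first listed start, both Tnni1 and Tnnt2 held 4 E-boxes and Tnnc2 held 2. Myl1 and Mylpf held 1 each, and Myl4 held none. Annotated exons covered 208 of these bases for Myl4, 107 for Tnnc2, 103 for Myl1 and 19 for Tnni1. Tnni1 and Tnnt2 each have 2 listed starts, and the other window held 2 E-boxes for Tnni1 and 1 for Tnnt2. Of 32851 RefSeq promoter windows of this length, 66.2% held at least 1 E-box and 12.2% held 3 or more. The E-boxes of Myl1 (224 bases before the start) and Mylpf (51 bases before) were both the palindrome CAGCTG, which 13% of the windows held. In the first windows Tnni1 held CAGCTG once and Tnnt2 held it at 2 places, while the other Tnnt2 window did not hold it. No consensus site of MEF2, a partner of the myogenic factors, was matched in any of the first windows, and 2.92% of all windows held one. All of these motifs read the same on both strands, and each palindrome is also counted as an E-box. These matches describe letters only.

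In growth medium, 5 of 5 testable genes were lower in Tw2_GM than in Pax7_GM, by 1.06 to 4.01 on the log2 scale. Over all 5452 genes tested, 74.7% were called in this comparison (26.0% lower and 48.7% higher). A gene was called at a limma adjusted p under 0.05, from a fit of log2(CPM + 1) over all 8 libraries with Benjamini-Hochberg adjustment. The median change of the 5 genes was −2.96, beside 0.34 for all genes. With the GC and length trend taken out this median was −1.72 (4 of 5 called), and with size factors −3.76. Across the alternatives other than leaving out a library, Myl4 ran from −4.86 to −2.74, Myl1 from −4.17 to −2.64, Tnnc2 from −3.76 to −1.72 and Tnni1 from −3.65 to −1.55, while Tnnt2 reached 0.14 with that trend taken out and was not called there. In these bulk samples, fewer cells of a type and less RNA per cell cannot be told apart.

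Among the light chains, Myl4 stood at 39.0 and 31.6 CPM in the Tw2_GM pair, against 670 and 503 CPM in the Pax7_GM pair. Both Tw2_GM libraries were far below both Pax7_GM libraries. The log2 fold change was −4.01 ± 0.18 (± is the standard error, with 2 libraries in each group; limma adjusted p = 4.25e-06), and the authors' means differed 16.6-fold. Myl4 lies at chr11:104550663-104595753 (GRCm38).

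Myl1, the fast essential chain, stood at 33.4 and 30.2 CPM in the Tw2_GM pair, against 318 and 334 CPM in the Pax7_GM pair. The groups did not overlap, and the log2 fold change was −3.32 ± 0.13 (limma adjusted p = 4.25e-06). Myl1 lies at chr1:66924295-66945404 on the minus strand.

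Mylpf, the fast regulatory chain, stood at 92.9 and 87.3 CPM in the Tw2_GM pair, against 1131 and 804 CPM in the Pax7_GM pair, again without overlap. In a fit over 6 libraries that dropped the unresolved Pax7_48 pair, its log2 fold change was −3.39 ± 0.19 (limma adjusted p = 1.88e-05). Mylpf lies at chr7:127208890-127214298.

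Among the troponins, Tnnc2 stood at 11.6 and 8.59 CPM in the Tw2_GM pair, against 95.8 and 74.9 CPM in the Pax7_GM pair. The value of 8.59 CPM rests on 97 reads, the fewest behind any value of these genes. The log2 change came to −2.96 ± 0.18 (limma adjusted p = 1.18e-05). Tnnc2 lies at chr2:164777161-164779967 on the minus strand.

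Tnni1, the slow inhibitory subunit, stood at 99.7 and 100.2 CPM in the Tw2_GM pair, against 829 and 584 CPM in the Pax7_GM pair. The 2 Tw2_GM libraries were almost equal, the 2 Pax7_GM libraries were apart, and the groups did not overlap. The log2 fold change was −2.79 ± 0.17 (limma adjusted p = 1.23e-05). Tnni1 lies at chr1:135779434-135810989.

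Tnnt2, the cardiac tropomyosin-binding subunit, differed least, at 206 and 240 CPM in the Tw2_GM pair, against 454 and 472 CPM in the Pax7_GM pair. The log2 change came to −1.06 ± 0.13 (limma adjusted p = 0.000212), and the authors' means differed 2.08-fold. It was the only one of the 5 genes whose direction here depended on the processing, with a value of 0.14 (adjusted p = 0.475) once each library's trend with transcript GC content and length had been removed. Tnnt2 lies at chr1:135836354-135852260, on the same chromosome as Tnni1.

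**Figure D1:**
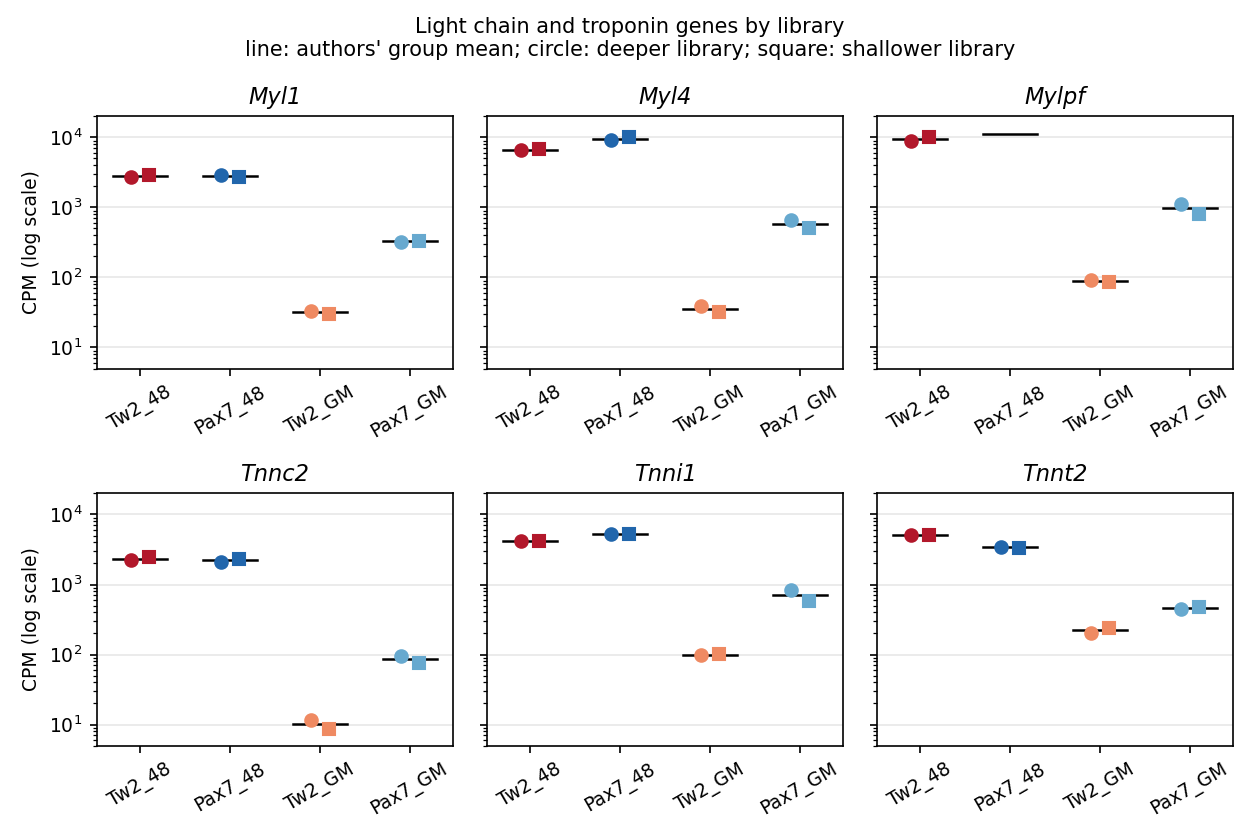
CPM on a log scale of the 6 genes in the 8 libraries, by group (Tw2_48, Pax7_48, Tw2_GM, Pax7_GM). Circles and squares are the deeper and the shallower library and lines the authors' group means, with Mylpf in Pax7_48 shown as its mean of 11082 CPM alone. In every panel Tw2_GM is the lowest group, and both 48 groups lie above both GM groups, the order of the GM groups for Tnnt2 alone turning with the GC and length trend removed (log2 difference 0.14).

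At 48 the lineage differences of the genes tested lay between −0.52 and 0.59 in the fit of CPM as recovered. Of the 5 testable genes, Tnnt2 was called higher and Myl4 lower in Tw2 cells, while 65.4% of all genes tested were called in either direction (43.3% higher, 22.1% lower). The median change of the 5 genes was 0.01, beside 0.27 for all genes. No direction at 48 held under every scaling tried, for any of the 5 genes, as set out below.

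Tnnt2 stood at 5054 and 5145 CPM in the Tw2_48 pair, against 3475 and 3304 CPM in the Pax7_48 pair. Both Tw2_48 libraries were above both Pax7_48 libraries, and the log2 fold change was 0.59 ± 0.13 (limma adjusted p = 0.00564). It was 1.39 with the GC and length trend removed but −0.07 (adjusted p = 0.668) after median-ratio size factors, so the direction turned with that scaling.

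Myl4 stood at 6613 and 6745 CPM in the Tw2_48 pair, against 9139 and 10015 CPM in the Pax7_48 pair, without overlap. The log2 fold change was −0.52 ± 0.18 (limma adjusted p = 0.0303). The call was lost on leaving out either Tw2_48 or either Pax7_48 library (values of −0.58 to −0.45), and the direction turned to 0.33 (adjusted p = 0.0752) once the GC and length trend had been taken out.

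The other 3 genes were not called. Myl1 stood at 2719 and 2906 CPM in the Tw2_48 pair, against 2899 and 2675 CPM in the Pax7_48 pair, so that the groups overlapped. Its log2 difference was 0.01, with a 95% interval of −0.28 to 0.31 (limma adjusted p = 0.931). Tnnc2 also overlapped, at 2258 and 2430 CPM in the Tw2_48 pair, against 2100 and 2332 CPM in the Pax7_48 pair, with a difference of 0.08 and an interval of −0.34 to 0.50 (limma adjusted p = 0.703).

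Tnni1 stood at 4142 and 4243 CPM in the Tw2_48 pair, against 5204 and 5277 CPM in the Pax7_48 pair. The groups did not overlap, but with the spread pooled over all groups the difference was −0.32, with an interval of −0.72 to 0.07 (limma adjusted p = 0.129). It was called with the same value in a fit of these 4 libraries alone (adjusted p = 0.0148). Mylpf had authors' means of 9452 CPM in Tw2_48 and 11082 CPM in Pax7_48 and was not tested at 48.

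After size factors taken from the listed genes, 4 of the 5 genes were called lower in Tw2_48 (Myl1 −0.65, Myl4 −1.18, Tnni1 −0.98, Tnnc2 −0.58). With the GC and length trend removed, 4 were called higher (Myl1 0.53, Tnni1 0.50, Tnnt2 1.39, Tnnc2 0.92). Size factors moved the median of all genes by −0.63 at 48 and by −0.84 in growth medium, and the median of all genes at 48 was then −0.36. Tnnt2 (−0.07) lay above that median and Myl4 (−1.18) below it, as they lay above and below the median of 0.27 in the fit of CPM as recovered.

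Between cultures, the 5 testable genes rose in both lineages. In Tw2 cells 5 of 5 genes tested in all 8 libraries were higher at 48, by 4.51 to 7.74 on the log2 scale, where 84.1% of all genes were called (35.3% higher and 48.9% lower). In Pax7 cells 5 of 5 were higher at 48, by 2.87 to 4.69, where 79.2% of all genes were called (38.8% higher and 40.5% lower). The median change was 6.42 in Tw2 cells and 3.09 in Pax7 cells, beside −0.49 and 0.01 for all genes. These calls kept their direction and their significance under all alternatives tried.

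Tnnc2 and Myl4 lay close together in Tw2 cells, and their order turned under quantile normalization (7.65 for Tnnc2, 7.66 for Myl4) and with a pseudocount of 5 (7.29 and 7.38). The Tnnc2 CPM of 2258 and 2430 in Tw2_48 stood against 11.6 and 8.59 in Tw2_GM, a log2 fold change of 7.74 ± 0.18 (limma adjusted p = 1.45e-08). In Pax7 cells 2100 and 2332 CPM in Pax7_48 stood against 95.8 and 74.9 CPM in Pax7_GM, a change of 4.69 ± 0.18 (limma adjusted p = 2.44e-07). By the authors' means these were 232-fold and 26.0-fold differences.

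Myl4 changed by 7.53 ± 0.18 in Tw2 cells and 4.04 ± 0.18 in Pax7 cells. Myl1 changed by 6.42 ± 0.13 in Tw2 cells and by 3.09 ± 0.13 in Pax7 cells. Mylpf, in the fit over 6 libraries, changed by 6.70 ± 0.19 in Tw2 cells (limma adjusted p = 6.13e-08). It stood at 8858 and 10046 CPM in the Tw2_48 pair, against 92.9 and 87.3 CPM in the Tw2_GM pair. In Pax7 cells its authors' means were 11.4-fold apart, at 11082 CPM in Pax7_48 and 968 CPM in Pax7_GM.

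Tnni1 changed by 5.38 ± 0.17 in Tw2 cells and by 2.91 ± 0.17 in Pax7 cells. Tnnt2 changed by 4.51 ± 0.13 in Tw2 cells and by 2.87 ± 0.13 in Pax7 cells, where it differed from Tnni1 by less than the standard errors. The limma adjusted p of Myl1, Myl4, Tnni1 and Tnnt2 lay between 1.45e-08 and 3.60e-08 in Tw2 cells and between 2.81e-07 and 1.34e-06 in Pax7 cells.

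The rise was larger in Tw2 cells for all 5 genes, by the test of the difference itself. The difference of the 48 minus GM change, Tw2 minus Pax7, was 3.49 ± 0.25 for Myl4 (limma adjusted p = 0.00018) and 3.33 ± 0.18 for Myl1 (6.95e-05). It was 3.05 ± 0.26 for Tnnc2 (0.000275), 2.46 ± 0.24 for Tnni1 (0.000547) and 1.65 ± 0.19 for Tnnt2 (0.000961). Of all genes tested, 18.7% were called in this contrast (9.72% higher and 9.01% lower), and the median of all genes was −0.22. Under every alternative tried, the 5 differences stayed positive and called. Each difference is the lineage difference at 48 less that in growth medium, which for Myl1 are 0.01 and −3.32, and for Tnnt2 are 0.59 and −1.06.

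By the authors' means, the level in GM as a share of that at 48 was 0.43% for Tnnc2, 0.529% for Myl4, 0.953% for Mylpf, 1.13% for Myl1, 2.38% for Tnni1 and 4.37% for Tnnt2 in Tw2 cells. The same shares in Pax7 cells were 3.85%, 6.12%, 8.73%, 11.7%, 13.5% and 13.7%, in the same order of genes. The 6 means summed to 30580 CPM in Tw2_48, 34291 CPM in Pax7_48, 490 CPM in Tw2_GM and 3135 CPM in Pax7_GM.

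**Figure D2:**
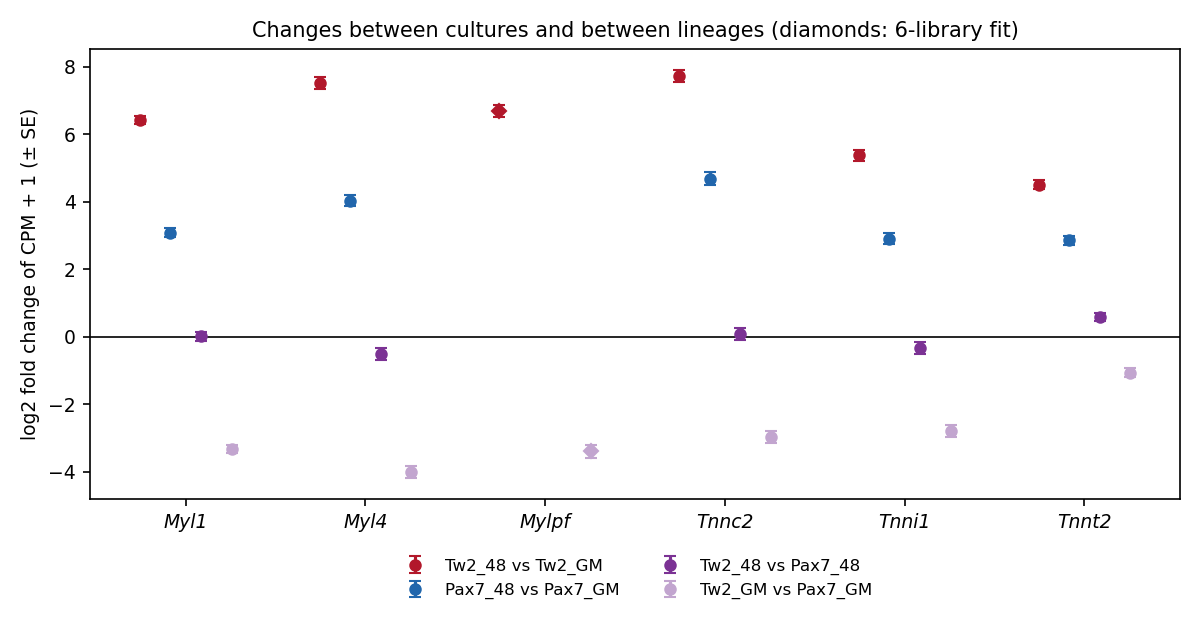
Log2 fold changes of CPM + 1 with standard errors for each gene in 4 comparisons, 48 against GM in Tw2 (red) and in Pax7 (blue), and Tw2 against Pax7 at 48 (dark purple) and in GM (light purple). For each gene tested in both, the change in Tw2 cells (4.51 to 7.74) lies above that in Pax7 cells (2.87 to 4.69), the lineage values at 48 lie between −0.52 and 0.59, and all lineage values in GM are negative (Tnnt2 turns to 0.14 with the GC and length trend removed, and the directions at 48 turn under at least 1 scaling). Diamonds for Mylpf come from the fit without Pax7_48.

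Per kilobase of transcript, which allows levels of different genes to be compared (with an annotated transcript length for each gene), the order of the 6 authors' means was led by Mylpf in Tw2_48 (12339 CPM per kb), Pax7_48 (14467) and Pax7_GM (1264). In Tw2_GM the first was Tnnt2, at 186 CPM per kb, followed by Mylpf at 118. Myl4 came next in the other groups, at 7083 in Tw2_48, 10156 in Pax7_48 and 622 CPM per kb in Pax7_GM, and next to last in Tw2_GM, at 37.4.

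Several neighbours in that order do not differ beyond the spread of their libraries. In Tw2_48, the libraries of Tnni1 (3646) and Myl1 (3503) overlapped, as did those of Myl1 and Tnnc2 (3349 CPM per kb). Myl1 (3470) and Tnnc2 (3165) also met in Pax7_48, Myl1 (39.6) and Myl4 (37.4) overlapped in Tw2_GM, and Myl4 (622) and Tnni1 (614) in Pax7_GM. Tnnc2 was last in Tw2_48, Tw2_GM and Pax7_GM, and Tnnt2 was last in Pax7_48, at 2825 CPM per kb.

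The troponin and light chain genes that share a subunit with these were also measured, so the share of each isoform could be set out per kilobase in each library. Troponin I was mostly the slow form everywhere. Tnni1 took 86.9 and 86.3% of Tnni1 plus Tnni2 in Tw2_48, 89.0 and 88.5% in Pax7_48, 90.5 and 93.2% in Tw2_GM, and 94.0 and 92.9% in Pax7_GM. Tnni3, the cardiac form, was not analysed here.

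Troponin C was mostly Tnnc1, the slow and cardiac form, with a larger fast share at 48. Tnnc2 took 31.3 and 30.8% of Tnnc1 plus Tnnc2 in Tw2_48, 29.3 and 30.8% in Pax7_48, 15.8 and 13.5% in Tw2_GM, and 14.9 and 15.2% in Pax7_GM. The 48 libraries lay above the GM libraries without overlap, and the lineages overlapped within each culture.

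Troponin T was mostly the cardiac form. Tnnt2 took 60.9 and 63.1% of the 3 genes in Tw2_48, 55.9 and 54.2% in Pax7_48, 61.3 and 67.5% in Tw2_GM, and 55.0 and 56.8% in Pax7_GM, so that the Tw2 libraries were above the Pax7 libraries in each culture. The fast Tnnt3 took 29.4 and 27.3% in Tw2_48, 29.7 and 32.1% in Pax7_48, 20.5 and 17.1% in Tw2_GM, and 20.8 and 20.8% in Pax7_GM. The slow Tnnt1 took 9.75 and 9.58%, 14.5 and 13.7%, 18.2 and 15.4%, and 24.2 and 22.3% in the same order of groups.

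Among the essential light chains, Myl4 took 61.4 and 60.4% of Myl4, Myl1 and Myl6b in Tw2_48, 67.7 and 70.6% in Pax7_48, 40.7 and 38.5% in Tw2_GM, and 59.5 and 52.7% in Pax7_GM. The fast Myl1 took 29.6 and 30.5% in Tw2_48, 25.2 and 22.1% in Pax7_48, 41.0 and 43.2% in Tw2_GM, and 33.2 and 41.1% in Pax7_GM. Myl3, the ventricular and slow form, was not analysed here, so these are shares of the measured genes alone.

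**Figure D3:**
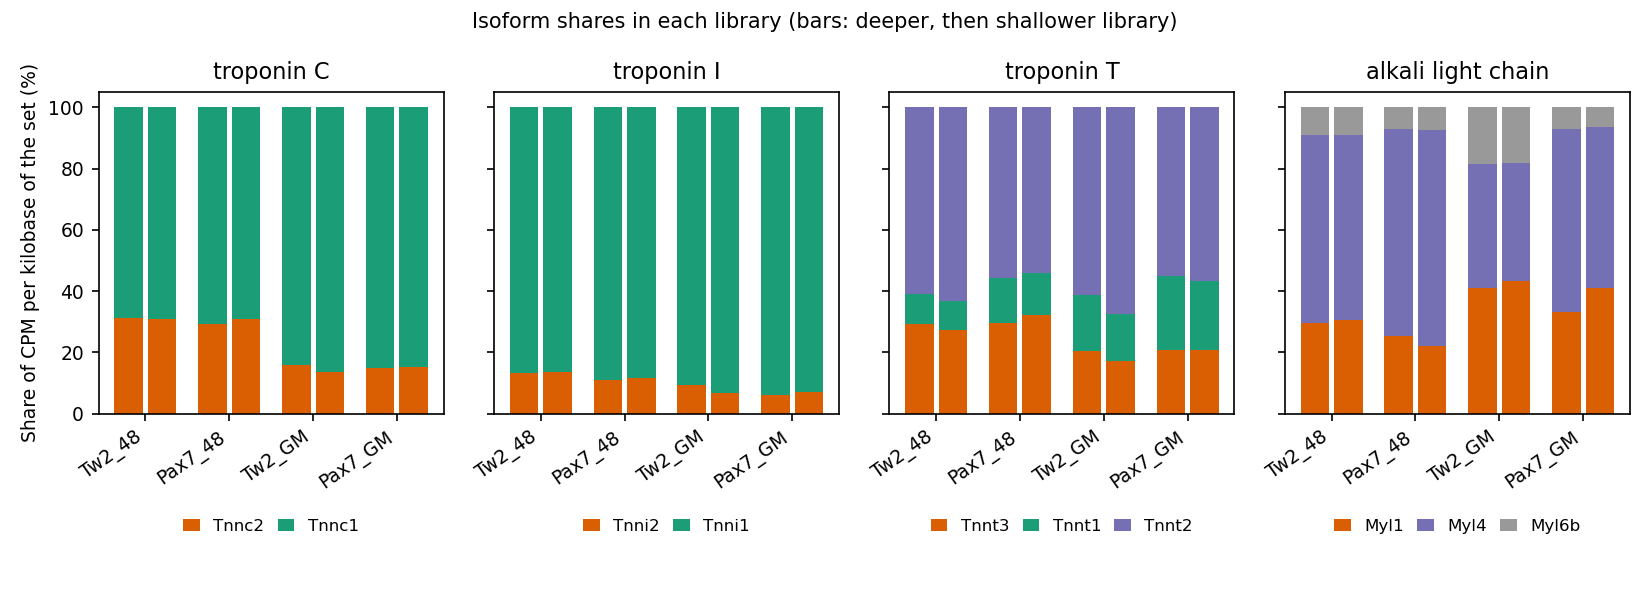
Share of CPM per kilobase taken by each gene within troponin C, troponin I, troponin T and the essential (alkali) light chains, with 1 stacked bar per library and the deeper library of each group on the left. Orange marks fast, green slow, purple cardiac or embryonic and grey the other essential chain Myl6b. The fast shares of troponin C are 29.3 to 31.3% in the 48 libraries and 13.5 to 15.8% in the GM libraries.

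Ratios of CPM + 1 within a library depend on its scaling factor only through the pseudocount, which weighs most where Tnnc2 is near 9 CPM, and 3 pairs were tested over the 8 libraries by exact permutation within strata (two-sided, 36 arrangements, smallest possible p = 0.0556, 6 tests). Slow troponin I over fast troponin C, as Tnni1 over Tnnc2, was lower at 48 than in GM by 2.07 on the log2 scale (exact permutation p = 0.0556, adjusted 0.0667), in both lineages and in all libraries. Its lineage difference was −0.11 (exact permutation p = 0.5), with −0.40 at 48 and 0.18 in GM. This design cannot reach a p of 0.05, so none of these differences is called. The ratios with Tnnc2 set different subunits against each other and are not isoform balances within a subunit. Within troponin I, Tnni1 took 86.9 and 86.3% in Tw2_48 against 90.5 and 93.2% in Tw2_GM, and 89.0 and 88.5% in Pax7_48 against 94.0 and 92.9% in Pax7_GM.

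Cardiac troponin T over fast troponin C, as Tnnt2 over Tnnc2, was higher in Tw2 than in Pax7 by 1.21 on average (exact permutation p = 0.0556, adjusted 0.0667). The linear ratio of CPM + 1 was 16.4 and 25.1 in Tw2_GM against 4.70 and 6.24 in Pax7_GM, and 2.24 and 2.12 in Tw2_48 against 1.65 and 1.42 in Pax7_48. It was lower at 48 than in GM by 2.52. Both differences were of like size with the GC and length trend removed, at 1.16 and −2.27. Within troponin T, the share of Tnnt2 was 61.3 and 67.5% in Tw2_GM against 55.0 and 56.8% in Pax7_GM. At 48 it was 60.9 and 63.1% in Tw2_48 against 55.9 and 54.2% in Pax7_48, so that share overlapped between cultures in each lineage.

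Embryonic over fast essential chain, as Myl4 over Myl1, was lower in Tw2 than in Pax7 by 0.61 and higher at 48 than in GM by 1.03 (exact permutation p = 0.0556 each, adjusted 0.0667). The linear ratio was 2.43 and 2.32 in Tw2_48, 3.15 and 3.74 in Pax7_48, 1.16 and 1.05 in Tw2_GM, and 2.10 and 1.504 in Pax7_GM. These transcripts differ in GC content (Myl4 55.5%, Myl1 47.7%), and after removal of the GC and length trend the lineage difference was −0.15 (exact permutation p = 0.167) and the culture difference 0.58 (p = 0.0556).

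**Figure D4:**
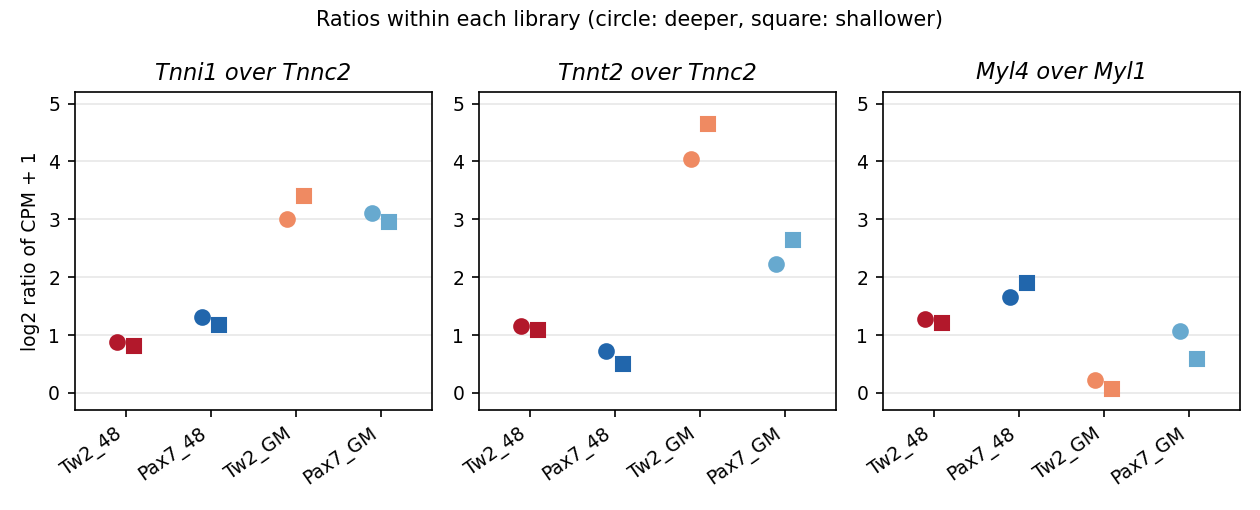
Log2 ratios of CPM + 1 within each library for Tnni1 over Tnnc2, Tnnt2 over Tnnc2 and Myl4 over Myl1, by group. Circles are the deeper and squares the shallower library. The first 2 ratios lie lower in all 48 libraries (0.50 to 1.31) than in all GM libraries (2.23 to 4.65), and Myl4 over Myl1 is lowest in Tw2_GM, at 0.22 and 0.06.

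Of 19 other light chains, their kinases and troponins listed for comparison, 8 were in the table. All 8 were called higher at 48 in each lineage, under every scaling. In the fit of CPM as recovered, 35.3% of all genes were called higher in Tw2 cells and 38.8% in Pax7 cells. Mylk reached 10 CPM only in the 48 libraries, so it could be listed only by being higher there. Mylip reached 10 CPM in the 48 libraries and otherwise only in the deeper Tw2_GM library. The rise of these genes is therefore not independent of how the table was selected. Myl6b, an essential light chain of slow and non-muscle myosin, stood at 1057 and 1107 CPM in Tw2_48, 1032 and 1121 in Pax7_48, 19.1 and 16.4 in Tw2_GM, and 88.2 and 65.2 CPM in Pax7_GM. Its change between cultures was 5.85 ± 0.17 in Tw2 cells and 3.81 ± 0.17 in Pax7 cells.

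Tnnc1, the slow and cardiac troponin C, stood at 5101 and 5632 CPM in Tw2_48, 5229 and 5398 in Pax7_48, 63.4 and 56.8 in Tw2_GM, and 562 and 431 CPM in Pax7_GM. Tnni2, the fast troponin I, had 419 and 451 CPM in Tw2_48, 429 and 459 in Pax7_48, 6.98 and 4.87 in Tw2_GM, and 35.5 and 29.7 CPM in Pax7_GM. Both had 48 levels that overlapped between lineages and GM levels that did not.

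Tnnt3 stood at 2045 and 1868 CPM in Tw2_48, 1551 and 1644 in Pax7_48, 57.6 and 51.0 in Tw2_GM, and 144 and 145 CPM in Pax7_GM. Tnnt1 stood at 693 and 668 CPM in Tw2_48, 770 and 713 in Pax7_48, 52.2 and 46.9 in Tw2_GM, and 171 and 159 CPM in Pax7_GM. In growth medium the 5 other light chain and troponin genes were all called lower in Tw2 cells (26.0% of all genes were), by 3.01 (Tnnc1), 2.29 (Tnni2), 2.04 (Myl6b), 1.71 (Tnnt1) and 1.40 (Tnnt3) on the log2 scale. With the GC and length trend removed these were −1.79 (Tnnc1), −0.97 (Tnni2), −0.72 (Myl6b), −0.53 (Tnnt1) and −0.27 (Tnnt3). Tnnt3 was then not called (limma adjusted p = 0.181). At 48 the differences of the 5 genes lay between −0.12 and 0.29, were not called, and turned in sign for each gene under at least 1 scaling.

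Of the listed enzymes that act on light chains, only Mylk was called between lineages at 48 under every scaling. In the fit of CPM as recovered, 65.4% of all genes were called in this comparison (43.3% higher). Mylk, the light chain kinase known from smooth muscle, stood at 43.0 and 45.5 CPM in Tw2_48, 17.4 and 16.0 in Pax7_48, 5.09 and 2.66 in Tw2_GM, and 5.15 and 6.56 CPM in Pax7_GM. It was higher in Tw2_48 than in Pax7_48 by 1.36 ± 0.23 (limma adjusted p = 0.00206), and called under each scaling, at 0.73 to 1.36. Mylk4, a kinase of the same family, stood at 482 and 439 CPM in the Tw2_48 pair, against 270 and 247 CPM in the Pax7_48 pair, a difference of 0.83 ± 0.14 (limma adjusted p = 0.00188), but of 0.17 (adjusted p = 0.264, not called) with size factors and 0.28 (adjusted p = 0.0428) with the GC and length trend removed. In growth medium Mylk4 was lower in Tw2 cells by 0.70 and Mylk had a difference of −0.53 that was not called.

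Mylip, a ubiquitin ligase that was named for binding the regulatory light chain, stood at 40.4 and 33.5 CPM in Tw2_48, 25.6 and 22.5 in Pax7_48, 10.7 and 7.79 in Tw2_GM, and 5.42 and 6.17 CPM in Pax7_GM. It was called higher in Tw2 cells in both cultures (0.60 at 48, 0.58 in GM), but both values turned negative under at least 1 scaling (to −0.04 and −0.18). Of the 8 genes it was the only one whose difference of changes was not called, at 0.02. Over all genes 18.7% were called in that contrast, 9.72% higher.

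Genes of the same filaments were counted from lists. Of 18 thin filament genes, 14 were in the table and 12 could be tested. Between cultures 9 were called higher and 3 lower at 48 in each lineage, and in growth medium 7 were called lower and 2 higher in Tw2 cells (5 lower and 4 higher with the GC and length trend removed). Over all genes, 35.3% were called higher and 48.9% lower at 48 in Tw2 cells, and 38.8% and 40.5% in Pax7 cells. In growth medium 26.0% of all genes were called lower and 48.7% higher in Tw2 cells. With the trend removed, 81.3% of all calls in growth medium were higher. Tmod1, which caps the pointed ends of actin, was lower in Tw2_GM by 2.88 and higher at 48 by 7.17 in Tw2 cells and 4.59 in Pax7 cells. Tpm4, a tropomyosin of the cytoskeleton, fell at 48 in Pax7 cells, with a change of −3.45, and had a value of −3.90 in Tw2 cells.

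Of 21 thick filament genes, 14 were in the table and 13 could be tested. All 13 were called higher at 48 in each lineage, beside 35.3% of all genes in Tw2 cells and 38.8% in Pax7 cells. In growth medium 12 were called lower in Tw2 cells, beside 26.0% of all genes. With the GC and length trend removed, 12 were lower and 1 higher, while 81.3% of all calls were higher. Mybpc1 (−3.57), the slow myosin-binding protein C, Myh8 (−3.57), the perinatal heavy chain, and Myh1 (−3.45), a fast heavy chain, had the largest values in growth medium in this fit. At 48 heavy chains differed between lineages in both directions, with Myh4, the type IIb chain, lower in Tw2 cells by 2.70 and Myh7, the slow chain, higher by 1.48. Under the scalings tried Myh4 lay between −3.34 and −2.51 and Myh7 between 0.83 and 1.79.

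Of 20 genes of calcium release and uptake, which set the signal that troponin C reads, 17 were tested. In each lineage 16 were called higher and 1 lower at 48 (35.3% and 48.9% of all genes in Tw2 cells, 38.8% and 40.5% in Pax7 cells). In growth medium 11 were called lower and 3 higher in Tw2 cells, with Casq1, a calcium store protein of muscle, at −4.10 and Cacna1s, the voltage-sensing calcium channel, at −3.38. Over all genes 74.7% were called in growth medium, 26.0% lower and 48.7% higher. After removal of the GC and length trend the growth medium counts of the 17 were 8 lower and 4 higher, while 81.3% of all calls were higher.

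Of 15 regulators of muscle genes, 10 were tested. Myog, the factor of terminal differentiation, was lower in Tw2_GM than in Pax7_GM by 1.98 and higher in Tw2_48 than in Pax7_48 by 0.67 (0.02 at the least under the scalings), and its mean was 3778 CPM in Tw2_48, 2369 in Pax7_48, 99.4 in Tw2_GM and 395 CPM in Pax7_GM. Mef2c, a cofactor of the myogenic factors, was lower in Tw2 cells in both cultures, by 2.57 in GM and by 0.92 at 48. Id3 and Id1, inhibitors of basic helix-loop-helix factors, fell at 48 in Pax7 cells, with changes of −5.33 and −4.17, and Id3 also fell in Tw2 cells, as did Id1, with −6.41 and −4.36. Mef2a was higher in Tw2 cells in both cultures, by 2.12 in GM and 1.63 at 48.

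The genes whose pattern over the 4 deposited means was most like each gene were found by the smallest root mean square difference of centred log2(mean + 1). For Myl1 these were Cacna1s (0.08), Tnnc1 (0.14) and Tmem182 (0.16), and for Mylpf they were Cacna1s (0.11), Hfe2 (0.17) and Tnnc1 (0.18). For Myl4 they were Ablim3 (0.09), Actn2 (0.19) and Myh8 (0.19), and for Tnnc2 they were Capn3 (0.19), Tmod1 (0.25) and Mybph (0.27). For Tnni1 they were Smpx (0.12), Rab40b (0.16) and Cox6a2 (0.19), and for Tnnt2 they were Tnfrsf19 (0.05), Cemip (0.11) and Lmod1 (0.13). With 4 points per gene this describes a likeness of shape and no more. Several of these genes were near 0 in Tw2_GM, where the 1 added to each mean understates their changes. Their means there were 0.256 CPM for Tnfrsf19, 0.379 for Lmod1, 0.512 for Rab40b, 0.601 for Capn3 and 0.961 CPM for Tmem182. The closeness of such genes to a member depends on that added value. Within the set, Myl1 and Mylpf were nearest to each other (0.20), and Tnnt2 was farthest from Myl4 (1.53).

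Markers of other cell types were examined beside these values. Of 8 heart markers and 5 endothelial markers none was in the table, and they were not analysed here. Of 10 smooth muscle and pericyte markers 7 were in the table, with summed levels of 12479 and 12081 CPM in Tw2_48, 10155 and 10680 in Pax7_48, 1802 and 1929 in Tw2_GM, and 2452 and 1942 CPM in Pax7_GM. Most of the sum at 48 was Acta2 and Des, which young skeletal muscle cells also express, while Rgs5, a pericyte marker, had 0.361 CPM on average in Tw2_48 and 0 reads in both Pax7_48 libraries, which allows up to 0.282 and 0.393 CPM (3 reads). In growth medium Rgs5 averaged 59.2 CPM in Tw2_GM and 15.1 CPM in Pax7_GM, a log2 difference of 1.94 (limma adjusted p = 0.000169), and Cspg4, another pericyte marker, averaged 72.5 CPM in Tw2_GM and 26.2 CPM in Pax7_GM, a difference of 1.42 (0.00027). Tagln, a smooth muscle marker, averaged 182 CPM in Tw2_48 and 53.2 CPM in Pax7_48, a difference of 1.75 (0.000225). These 3 kept their direction under each scaling, with Rgs5 down to 0.62 and Cspg4 to 0.56. Of the 7 markers, 2 were called higher and 1 lower (Acta2, −0.38) in Tw2_GM, and 4 higher and 1 lower in Tw2_48. Over all genes, 48.7% were called higher and 26.0% lower in growth medium, and 43.3% and 22.1% at 48. With size factors the counts of the 7 were 2 higher and 5 lower in growth medium, and 1 higher and 2 lower at 48.

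Of 8 fibro-adipogenic markers 4 were in the table, summing to 204 and 243 CPM in Tw2_48, 431 and 403 in Pax7_48, 999 and 948 in Tw2_GM, and 928 and 917 CPM in Pax7_GM. The single genes differed in both directions. Col1a2 averaged 15.4 CPM in Tw2_48, 258 in Pax7_48, 3.45 in Tw2_GM and 406 CPM in Pax7_GM, with log2 differences of −4.21 at 48 and −6.51 in growth medium. Prrx1 averaged 1.40 CPM in Tw2_48, 23.8 in Pax7_48, 3.54 in Tw2_GM and 34.6 CPM in Pax7_GM, with differences of −3.37 and −3.01. Col3a1 averaged 196 CPM in Tw2_48, 122 in Pax7_48, 964 in Tw2_GM and 470 CPM in Pax7_GM, with differences of 0.68 and 1.04. All 6 differences were called in this fit and kept their sign under each scaling, with Col3a1 down to 0.02 at 48 and 0.16 in growth medium. Over all genes, 65.4% were called between lineages at 48 and 74.7% in growth medium. Col1a1, the other marker tested, was not called between lineages in either culture. Prrx1 reached 10 CPM only in Pax7 libraries, so it could be listed only by being higher there. Of 5 immune markers only Itgam was in the table, at means of 20.4 CPM in Tw2_48, 13.9 in Pax7_48, 0 in Tw2_GM (up to 0.246 and 0.266 CPM allowed by 3 reads) and 0.56 CPM in Pax7_GM. Itgam reached 10 CPM only at 48, so it could be listed only by being higher there. Of 7 satellite cell markers 4 were in the table, summing to 2105 and 2052 CPM in Tw2_48, 3121 and 3442 in Pax7_48, 1115 and 1028 in Tw2_GM, and 1412 and 1264 CPM in Pax7_GM. Its genes moved in opposite directions between cultures. Pax7 and Vcam1 were lower at 48, by log2 changes of −3.02 and −4.33 in Tw2 cells and of −3.42 and −3.18 in Pax7 cells, while Cdh15 was higher, by 1.69 in Tw2 cells and 1.80 in Pax7 cells, and together with Itga7 made up most of the sum. Between lineages at 48, Pax7 was called higher in Tw2 cells by 0.35 (limma adjusted p = 0.0303). It was not called higher with size factors, TMM factors or quantile normalization. Vcam1 (−1.03) and Itga7 (−0.94) were called lower there. The 7 markers of differentiating skeletal muscle summed, over the authors' means, to 43365 CPM in Tw2_48, 28170 in Pax7_48, 474 in Tw2_GM and 2406 CPM in Pax7_GM, above both GM groups at 48 as were the 6 genes together. Myh3 differed most at 48, at 20577 CPM in Tw2_48 and 8729 CPM in Pax7_48. It was not tested, having 2 solutions in Tw2_48. Tmem8c and Gm7325 went the other way, with 2950 and 242 CPM in Tw2_48 against 3470 and 408 CPM in Pax7_48. Of the 5 markers tested at 48, 2 were called higher and 1 lower in Tw2 cells (43.3% and 22.1% of all genes were). Size factors gave 1 higher and 3 lower, and trend removal 4 higher and 0 lower. The part of cell composition in the results was not tested.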

How the data were processed

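The deposited table lists 5457 genes, each with group mean CPM values and 3 log2 ratios to Tw2_GM made by the authors. GRCm38 (mm10), DESeq2 1.6.3 and TopHat2 2.0.0 are given without roles in the submitters' processing notes, and the counting tool, annotation and strand handling are not given in the sources used here. The deposited log2 fold changes equalled log2 of (mean + 1) over (Tw2_GM mean + 1) to within 1.41e-11. Each mean was split into 2 whole read counts, using the 2 read sizes that fit each column, within 1.1 times its rounding, and 5452 genes had 1 solution in every group (checked on simulated means).

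Recovered CPM were tested with limma 3.58.1 (R 4.3.3) on log2(CPM + 1), with 1 mean per group, eBayes without trend (4 residual and 4.02 prior degrees of freedom) and adjustment over 5452 genes. The pseudocount understates changes of low genes. Transcript length and GC content (GENCODE) were known for 5431 genes. At these depths 3 reads, the limit a count of 0 allows, are 0.218 to 0.579 CPM, which covers counting error only. Members and lists were chosen with earlier results of these data known. Named genes are the 6 members, all their relatives in the table, up to 3 called genes of the largest change per list and comparison, and 3 most like genes per member.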

Additional observations from a re-analysis of the deposited data

Results flagged for a closer look

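The 48 minus GM change differed between the lineages, by a test of the difference itself, for all 5 genes resolved in every library. The excess of the change in Tw2 cells over that in Pax7 cells was 3.49 for Myl4, 3.33 for Myl1, 3.05 for Tnnc2, 2.46 for Tnni1 and 1.65 for Tnnt2 on the log2 scale. The spread behind these values is pooled over all groups, including Pax7_GM, whose libraries differed most. The authors' means of Mylpf gave 104.9-fold in Tw2 cells and 11.4-fold in Pax7 cells, and the difference was not tested.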

How the results depend on the processing

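Of the recomputed log2 values of single genes, 450 kept their direction and their side of the threshold, 10 reversed, 8 gained and 5 lost a call. For Tw2_48 against Pax7_48, 2 genes were called, but 4 after size factors (all lower) and 4 with the GC and length trend removed (all higher), and 1 to 3 on leaving out 1 library at a time. Reversed values at 48 were Myl1 −0.65, Tnnt2 −0.070 and Tnnc2 −0.58 with size factors, Myl1 −0.27 and Tnnc2 −0.20 with TMM factors, and Myl4 0.33 and Tnni1 0.50 with the trend removed. In growth medium Tnnt2 reversed to 0.14 with the trend removed. Leaving out 1 library at a time gave Myl1 at −0.044 to 0.072, with −0.044 without the shallower Pax7_48 and −0.034 without the shallower Tw2_48 library. The call of Myl4 was lost without either Tw2_48 or either Pax7_48 library, and Tnni1 was called without either Pax7_GM library. Both scalings used listed genes alone, and the cause was not tested.

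Among all genes called in growth medium, 2655 were higher and 1417 lower (65.2% higher), against 1393 and 2940 with size factors (32.1%), 1582 and 2762 with TMM factors (36.4%), 2208 lower with quantile normalization (47.2% higher) and 779 lower with the trend removed (81.3% higher). At 48 there were 2363 higher and 1205 lower (66.2%), against 945 and 2631 with size factors (26.4%), 50.4% higher with TMM factors, 48.4% with quantile normalization and 700 lower with the trend removed (78.2%). In the difference of changes, where 530 were higher and 491 lower, leaving out 1 library gave 310 to 962 higher and 126 to 2191 lower. The share of higher calls there was 51.9%, and 74.6%, 89.3%, 60.1% and 34.1% under size factors, TMM factors, quantile normalization and trend removal.

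No paired analysis was possible because the group means carry no replicate numbers. The planned DESeq2 and edgeR fits were not run. In their place voom on the recovered reads was added after seeing the data (3 genes called at 48, otherwise the same counts), as were the fit without Pax7_48 and trend removal for the ratios. Limits of depth are small for these genes, with at least 97 reads behind each value, while 2 libraries per group limit the precision.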
